A study of Mus musculus with 3 samples.

Results

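Gm10800 and Gm10801 are predicted genes that lie side by side on chromosome 2 of the mouse genome. This account covers every region at them in the ChIRP-seq of PAM, a long non-coding RNA also called PAM-1. The study describes PAM as generated from a super-enhancer specific to myoblasts, the proliferating cells that activated muscle stem cells become. ChIRP-seq hybridizes biotinylated antisense probes to an RNA in crosslinked chromatin, and the DNA recovered with the probes is sequenced. The cells were activated satellite cells (ASCs), the cultured stem cells of skeletal muscle, sorted from the hindlimb muscles of Tg:Pax7-nGFP mice, in which the Pax7 promoter drives a nuclear fluorescent protein, and they had no further treatment. For each pull-down the cells were crosslinked with 1% glutaraldehyde for 10 min, and 100 pmol of an odd or an even pool of probes was hybridized at 37 °C for 4 h. Each pool was 1 library and gave 1 list of regions, so no value has a replicate error and no test was run. The input library was not analysed here. How many animals were pooled, their age, and which of the 6 probes belonged to which pool were not given in the sources used here.

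A region was taken when it overlapped by at least 1 bp the span of either gene extended by 5000 bp on each side. Of 2457 listed regions, 4 met this rule, namely 1 of 2112 in the odd pool and 3 of 345 in the even pool. Both genes were selected on the scores of these same lists, where Gm10800 stands near the top, so scores and ranks are given as a description and nothing is supported with them. The regions inside the rule overlapped a gene or lay at most 925 bp from one. Outside it, the closest region of either pool was an even region 3.54 Mb to the right, at Gm13866 with a score of 5. The closest odd region was 4.14 Mb to the right, at Cd44 with a score of 14. The stretch searched, from 98497394 to 98512458, held no other annotated gene.

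Satellite DNA is made of short units repeated head to tail in long arrays. In mouse, the major satellite fills the heterochromatin beside the centromeres and is a usual target of H3K9me3 and HP1, while the minor satellite forms the centromere itself and carries the CENP-B box, the motif bound by the centromere protein CENP-B. Satellite arrays are transcribed at low levels, and such RNA is known to associate with pericentromeric chromatin. Most of this DNA is absent from genome assemblies.

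In the GENCODE M1 annotation of mm9, both genes are labelled protein coding. Gm10801 is on the plus strand, chr2:98502394-98504240, with 3 exons and a spliced length of 510 bases. Gm10800 is on the minus strand, chr2:98506704-98507458, with 5 exons and a spliced length of 660 bases. Its 4 annotated introns are only 4, 1, 25 and 65 bp long. The genes point towards each other across 2.46 kb that hold no annotated gene. The nearest other genes were both pseudogenes, Gm13806 at 60.9 kb on the left and Gm13809 at 888 kb on the right.

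The sequences of the listed regions are shown first because the account turns on what they are made of. They are from mm9 and written 5′ to 3′. The first line is the 298 bp covered by the odd and the even region at Gm10800, chr2:98507162-98507459 on the plus strand, with the 204 bases that both pools share in capitals. The second is the even region at Gm10801, chr2:98502419-98502666, written on the minus strand because it matches Gm10800 in that orientation. Its capitals mark the 72 bases that are identical to a run in the first sequence.
Gm10800, odd and even regions: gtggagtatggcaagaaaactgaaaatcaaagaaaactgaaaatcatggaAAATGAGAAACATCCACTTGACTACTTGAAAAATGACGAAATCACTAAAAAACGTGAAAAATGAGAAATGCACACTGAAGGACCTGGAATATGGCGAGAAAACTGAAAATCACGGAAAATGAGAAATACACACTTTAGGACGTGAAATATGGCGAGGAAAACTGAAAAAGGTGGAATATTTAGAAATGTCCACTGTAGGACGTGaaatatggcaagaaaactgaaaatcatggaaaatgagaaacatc
Gm10801, even region: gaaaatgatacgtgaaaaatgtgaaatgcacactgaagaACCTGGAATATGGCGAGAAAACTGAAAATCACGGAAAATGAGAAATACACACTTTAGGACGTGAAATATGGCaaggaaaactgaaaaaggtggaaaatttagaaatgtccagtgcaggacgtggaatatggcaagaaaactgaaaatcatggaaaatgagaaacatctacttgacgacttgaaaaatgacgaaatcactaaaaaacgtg

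The remaining even region lay between the genes, chr2:98505165-98505412, and is shown on the plus strand with its CENP-B boxes in capitals. Below it are the 233 bp shared by an odd and an even region on chromosome 6, chr6:103599099-103599331 on the minus strand, which aligned to it and hold the same box.
Between the genes, even region: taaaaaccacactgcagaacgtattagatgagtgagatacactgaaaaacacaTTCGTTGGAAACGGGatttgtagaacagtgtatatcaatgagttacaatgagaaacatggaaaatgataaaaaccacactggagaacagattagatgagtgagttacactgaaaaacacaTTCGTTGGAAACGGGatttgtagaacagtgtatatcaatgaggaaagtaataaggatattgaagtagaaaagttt
Chromosome 6, odd and even regions: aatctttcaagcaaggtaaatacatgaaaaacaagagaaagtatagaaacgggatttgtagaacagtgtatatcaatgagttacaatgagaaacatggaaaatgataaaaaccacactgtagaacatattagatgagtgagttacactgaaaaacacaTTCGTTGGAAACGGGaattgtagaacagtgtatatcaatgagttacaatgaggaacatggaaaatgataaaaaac

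At Gm10800 both pools listed a region of nearly the top score. The score is the value that the authors deposited with each region. Its unit was not given in the sources used here, and the scales of both lists may differ. The odd region, chr2:98507162-98507415, had a score of 67 and rank 4 of 2112, with 0.189% of the odd list scoring at least as high. Above it stood regions at Fn1, which encodes fibronectin, with 81, at Sparc, a matricellular protein gene, with 72, and at H19, an imprinted non-coding RNA gene, with 68. Just below it stood a region at Actb, which encodes a cytoskeletal actin, with 66. The even region, chr2:98507212-98507459, had a score of 66 and rank 2 of 345. Only a region on chromosome 17 outside the genes of this annotation, chr17:39984578-39984825, with 68, stood above it. The odd list had a region overlapping that one, chr17:39984614-39984867, with a score of 63 at rank 6. A near-top score in both pools was therefore not particular to Gm10800. Below Gm10800, the next even region, also on chromosome 17, had 34. Both regions lay mostly on exons of Gm10800, with 224 of 254 bp in the odd pool and 231 of 248 bp in the even pool.

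The other regions at the locus came from the even pool and had far lower scores. The region at Gm10801 covered 247 bp of exon 1 and had a score of 15, which placed it at rank 20 together with 4 regions of that score in all. The region between the genes lay 925 bp past the end of Gm10801 and 1292 bp from Gm10800, and had a score of 14 at rank 24, shared by 7 regions. The odd pool listed no region at either position. The nearest odd region to both was the one at Gm10800, 4495 bp and 1749 bp away. The odd list is the longer one, and the depth of neither library is known. Thus 1 locus was shared between the pools. Over the whole lists, 6.96% of odd regions overlapped an even region and 42.6% of even regions overlapped an odd region, against 1 of 1 and 1 of 3 here.

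**Figure D1:**
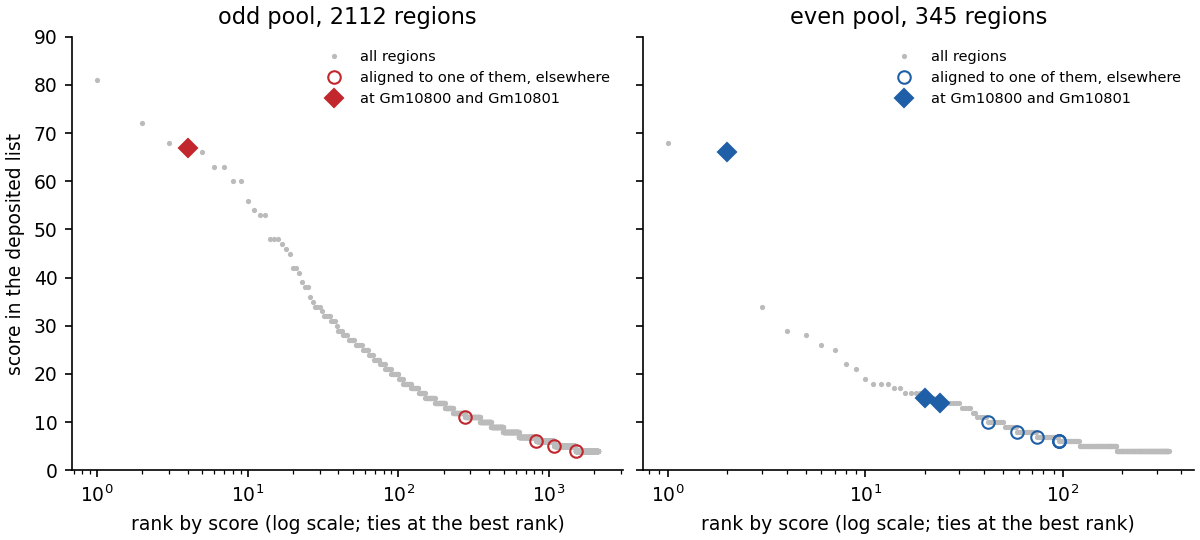
Score of each region (vertical axis, as deposited) against its rank (log axis), for the odd pool on the left and the even pool on the right. Filled diamonds are the regions at Gm10800 and Gm10801, open circles are regions elsewhere that aligned to one of them, and grey dots are all regions. The Gm10800 regions stand at 67 and 66, the other filled points at 15 and 14, and the open circles at 11 or below.

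The regions at the genes were of one kind of sequence and the region between the genes was of another. The even region at Gm10801 aligned to Gm10800 at 96.7% identity over 241 bp, on the opposite strand. Both genes therefore hold related sequence in inverted orientation. The region between the genes gave no alignment with any of the other 3 regions, and its longest exact run in common with them was 12 bases. All 4 were poor in G and C, with 35.9% at Gm10801, 34.3% between the genes, and 36.2% and 35.5% in the odd and even regions at Gm10800. The medians of the lists were 49.6% in the odd pool and 48% in the even pool.

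The repeat unit was read from how well a sequence matches itself when it is shifted. Along the 755 bp of Gm10800, a shift of 485 bp gave 97.8% identity over 270 bp, and the next best shifts were 234 bp with 67.2% and 251 bp with 64.7%. The latter shifts add up to the former. The median over all shifts up to 600 bp was 30.7%. On chromosome 9, the 37395 bp from Gm10722 to Gm10715, genes of the same predicted kind, had their highest self-identity, 71.2%, at the same 234 bp. This length is that of the mouse major satellite unit. The even region between the genes matched itself best at a shift of 120 bp, with 77.3% over 128 bp against a median of 29.2%, and 120 bp is the length of the minor satellite unit.

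**Figure D2:**
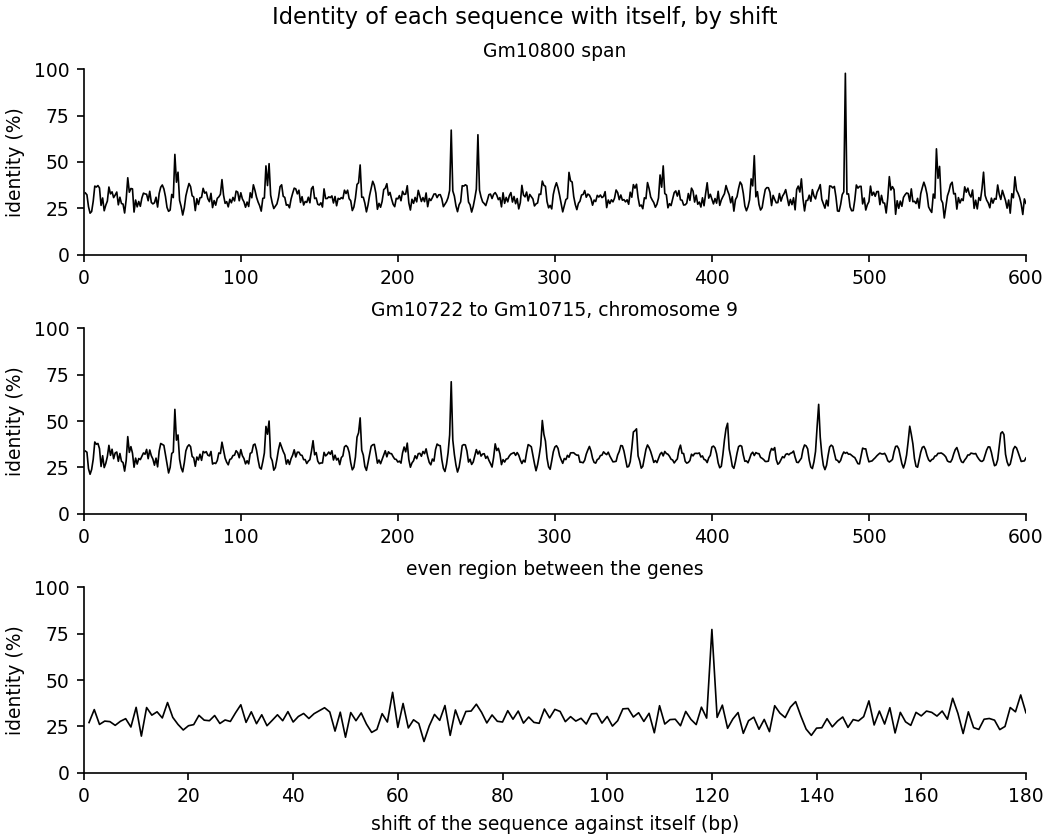
Identity (%) of a sequence with itself against the shift in bp, for the Gm10800 span, the chromosome 9 stretch from Gm10722 to Gm10715 and the even region between the genes. The highest peaks are at 485, 234 and 120 bp.

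The CENP-B box was searched on both strands as TTCGNNNNANNCGGG, 15 bases of which 9 are fixed. The region between the genes held 2 boxes, 120 bp apart, and the regions at Gm10800 and Gm10801 held none. In the whole odd list 0.0473% of regions held a box, and in the whole even list 0.58%. These were 1 odd region and 2 even regions. The odd one and the even one besides the region between the genes were the overlapping regions on chromosome 6 shown above, each with 1 box and a score of 6. Within the searched stretch of chromosome 2 there were 6 boxes, 3 on each strand, and neighbours within an array were 120 bp apart. Of these, 4 lay outside listed regions. A match of these letters is a description and does not show binding by CENP-B.

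Between the satellite-like stretches, the locus was made of pieces that match chromosome 19. An exact direct repeat of 301 bp stood at either end, chr2:98501261-98501561 and chr2:98507494-98507794, and enclosed 5932 bp with both genes inside. Within it, 8 pieces of 251 to 606 bp matched chromosome 19 at 98.5% to 100% identity. Their counterparts were scattered along chromosome 19 from 12.9 to 59.4 Mb, 5 on the same strand and 3 on the opposite one. Of the 6534 bp from one end of the repeat to the other, 47.6% matched chromosome 19, 25.7% was similar to the regions at the genes and 15% was similar to the region between them. The exons of Gm10801 were wholly of the Gm10800 kind, while 35% of its span, all intronic, matched chromosome 19. Gm10800 was of its own kind over 99.9% of its span. This kind was defined by alignment to the regions at both genes, so the shares of this kind are partly fixed. The region at Gm10801 alone covers 247 of the 510 exon bases of that gene.

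None of the 4 regions overlapped a chromosome 19 piece, and none of the 2457 listed regions lay at the counterparts on chromosome 19. The 8 pieces total only 3117 aligned bp and no background share is given, so neither count shows that regions avoid this sequence. The satellite-like stretches were defined by alignment to the regions themselves, so that the regions lie in them is not a result. The nearest piece was separated from a region by 30 bp. Words of 51 bases were used to describe how much of each sequence occurs once in mm9. In the chromosome 19 pieces 18.5% of them did, against 68.9% in the stretches of the Gm10800 kind and 76.4% in those of the other kind. The authors kept uniquely mapped reads, and the part of these shares in where regions were listed was not tested.

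**Figure D3:**
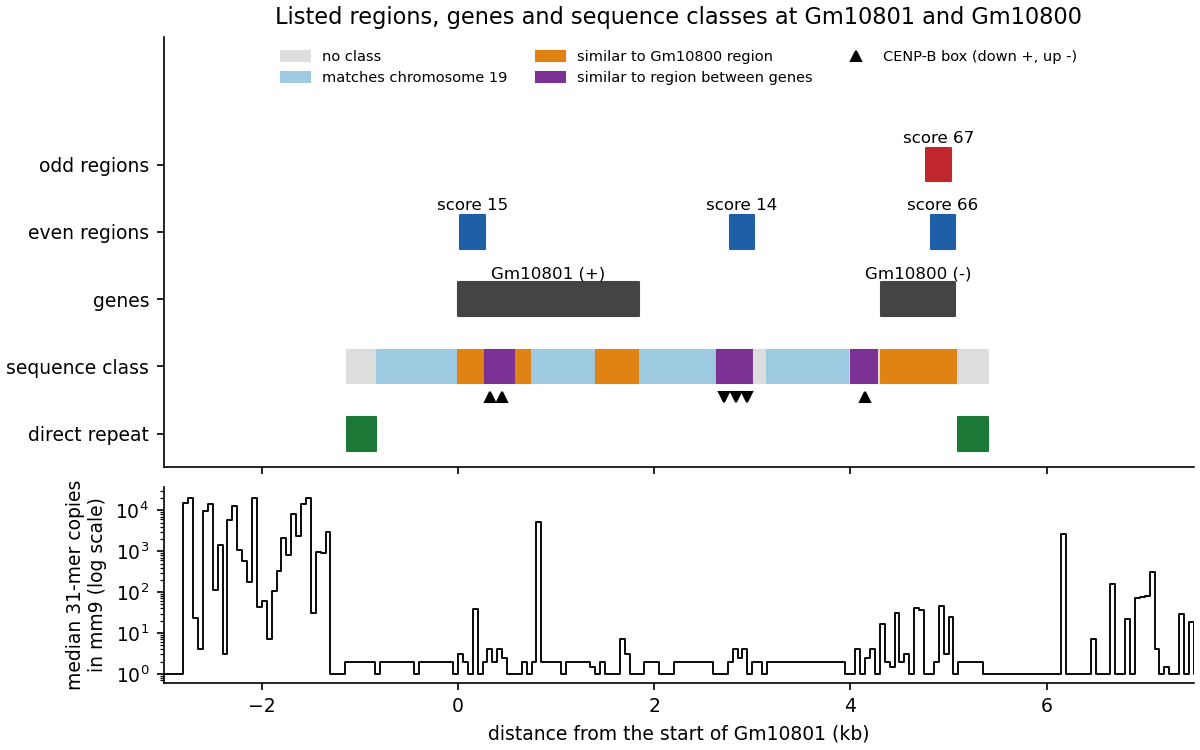
Map of the locus by distance from the start of Gm10801 (kb), with listed regions and their scores, genes and their strands, the class of each stretch of sequence, CENP-B boxes and the 301-bp direct repeat. The lower panel gives the median number of times that 31-base words occur in mm9, in bins of 50 bp (log axis). Satellite-like stretches were defined by alignment to the regions, which therefore fall on them. Pieces matching chromosome 19 lie between these stretches.

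The sequence of these regions was repeated in the genome when read in words of 31 bases. In any sequence, a longer word can occur at most as often as the shorter words within it. The median 31-base word occurred 3 times in mm9 in each region at Gm10800, 2 times at Gm10801 and 4 times between the genes. The highest count of any word was 88 in the regions at the genes and 8 between them. With a median of at least 2 as the mark of a repeated region, 1 of 1 odd and 3 of 3 even regions were repeated, against 16.5% of the odd list and 19.4% of the even list. The median region of both lists had words that occur once. With words of 51 bases, the median was 1 in all 4 regions, and from 56.6% to 69.7% of the words were found once. Copies that are not in the assembly do not enter these counts.

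Alignments at 80% identity or more over at least 100 bp showed where the similar sequence lies. The odd region at Gm10800 had 441 of them in mm9 and the even one 503, with 176 and 195 on chromosome 9 and 227 and 259 on unplaced sequences. The region at Gm10801 had 381, of which 180 were on chromosome 9. The region between the genes had 58, with 31 on chromosome Y and 8 on chromosome 2. When alignments within 10000 bp were joined, the Gm10800 kind formed 18 clusters on chromosomes, and 4 of them held an odd region and the same 4 an even region. These were the locus itself, the array at the start of chromosome 9, and short islands at chr9:35112801-35113176 and chr12:3109872-3110121. The locus holds regions by definition, because the clusters were found by aligning its own regions. The largest of the clusters with no region covered 1100 bp. The 15 clusters on unplaced sequences covered 66.1 kb and held none, and neither list has any region on such sequences. The other kind formed 12 clusters, among which the locus, again by definition, and chromosome 6 held regions. The largest, with 3133 bp on chromosome Y, held none.

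Few regions elsewhere aligned to these. There were 4 in the odd pool, with scores from 4 to 11 around the list median of 6, and all 4 overlapped an even region, against 6.96% of the odd list. There were 6 in the even pool, with scores from 6 to 10, all above the list median of 5, and 4 overlapped an odd region, against 42.6% of the even list. The island at 35.1 Mb of chromosome 9, outside annotated genes, had 11 in the odd pool and 10 in the even pool, and aligned to the odd region at Gm10800 at 97.8% and 97.7%. The island at 3.11 Mb of chromosome 12, also outside genes, had 5 and 8, and aligned to the region at Gm10801 at 95.8%. The chromosome 6 regions, in an intron of Chl1, a neural cell adhesion gene, had 6 and 6, and aligned to the region between the genes at 98.1%. As a description, the locus at Gm10800 had a score of 67 beside at most 11 in the odd list, and 66 beside at most 15 in the even list, among sequences of its kind.

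The 7 other predicted genes of this kind that were listed for comparison lie in the chromosome 9 array, which aligned over 38417 bp. They are Gm10715, Gm10717, Gm10718, Gm10719, Gm10720, Gm10721 and Gm10722, and their exons held from 15 to 23 alignments each, against 11 on Gm10800 and 12 on Gm10801. These counts are not scaled to exon length, which differs between genes, so they do not rank the genes by content of this sequence. The odd pool had 1 region within 5000 bp of any of these 7 genes, with a score of 4 before Gm10722. The even pool had 3, with 7 before Gm10722, 6 at Gm10718 and 6 before Gm10715. No region of either pool lay within 5000 bp of Gm10720 or Gm10721. Gm16869, an annotated lincRNA that spans the array, had the most alignments on its exons, 60, and held all of these regions. Gm11167, Gm17535, Gm10106, Gm10716 and Gm11168 followed with 13 to 19, all on the same stretch, and Gm10106 held the even region with 6 inside its span.

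How much of a region occurs once varied over the array, the islands and the locus. In the array, from 17.2% to 45.5% of 51-base words occurred once, and scores were 4 to 7. On chromosome 12 the shares were 41.2% and 39.4%, within the range of the array, with scores of 5 and 8. The island at 35.1 Mb of chromosome 9 had 60.3% and 64.1%, with scores of 11 and 10, and the Gm10800 regions had 57.8% and 56.6%. The even region at Gm10801 had 69.7% with a score of 15. The chromosome 6 regions had 70.6% and 69.7% with a score of 6. The Gm10800 scores are those on which the gene was selected, and the part of the single words in any score was not tested.

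**Figure D4:**
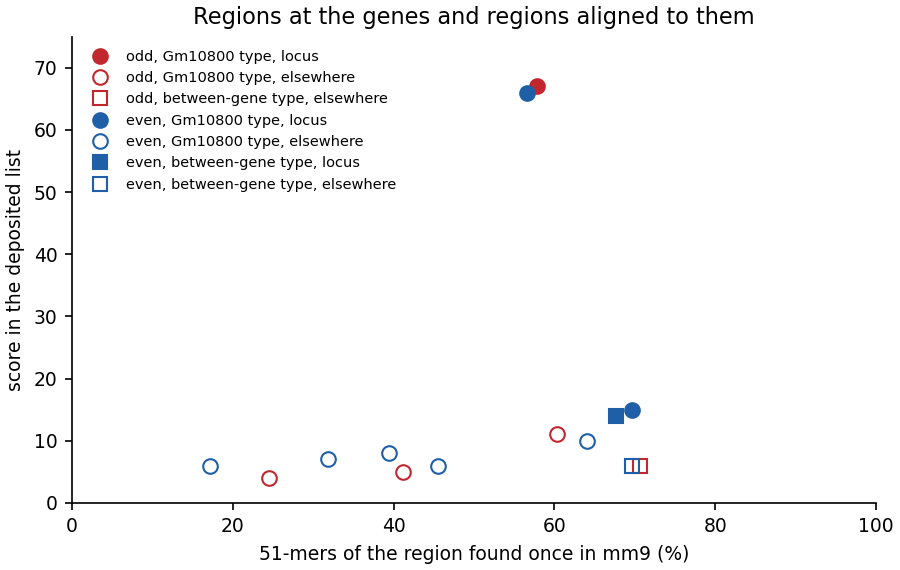
Score of each region at the locus (filled) and of each region elsewhere that aligned to one of them (open), against the percentage of its 51-base words that occur once in mm9. The 2 points near the top are Gm10800 in both pools, at 57.8% and 56.6%. The points at 60% or more have scores from 6 to 15.

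The probes were compared with the regions directly. In every region the best of 6 probes of 20 nt could be laid down with 8 mismatches at the fewest, without gaps and on either strand. As good a match was found in 91.8% of the odd list and 93.6% of the even list. The longest exact run with a probe was 9 bases in each of the 4, and the median of the lists was 7 in the odd pool and 8 in the even pool. A run of at least this length was found in 14.7% of all 2457 regions, so the measures place the regions differently. With the spliced model of PAM in the annotation, Gm12603 of 618 nt, the longest exact run was 9 bases in both regions at Gm10800 and between the genes, and 10 at Gm10801. The medians of both lists were 9. This model is shorter than the transcript cloned in the study, whose further bases were not compared.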

How the data were processed

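PAM ChIRP-seq of ASCs was analysed in 2 libraries, 1 for each pool of probes. Per the methods and the processing notes, uniquely mapped reads were placed on mm9 by Bowtie2 and MACS2 called the peaks. Their versions were not given in the sources used here. For each pool the authors deposited a list of regions of fixed width with a whole-number score, whose unit is not stated. Read depth is unknown, so no interval was computed. The first coordinate was taken as a 0-based start, and positions are printed 1-based.

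The members and the lists of genes were chosen with earlier results of these data known. The genes named were the members, every gene in the searched stretch, 7 other predicted genes, up to 10 genes with the most alignments on their exons (6 were found), PAM, and genes at the neighbouring or aligned regions. The search for chromosome 19 pieces (megablast, at least 95% identity over 200 bp), the direct repeat, the CENP-B box and the PAM transcript was added after the data were seen. Words of 31 bases were counted on both strands of mm9, with 21 and 51 as alternatives. Alignments used blastn without masking, at an E-value of at most 1e-05. Ranks give ties their best place. Word counts, probe placement and repeat periods were tested on simulated data. The tools were BLAST 2.17.0, samtools 1.23.1, pysam 0.24.0 and, in Python 3.11.15, NumPy 2.4.6, numba 0.67.0 and matplotlib 3.10.9.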

Additional observations from a re-analysis of the deposited data

How the results depend on the processing

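No paired analysis was possible because there was only a single library for either pool and no test was run. Of 28 alternative values for 10 results, 18 stayed within 1.5 times the reported value. The counts of regions at the genes, 1 and 3, stayed so under every flank and rule tried, with 2 even regions when no flank was allowed, and the ranks of 4 and 2 did not change. With words of 21 bases the median copies rose from 3 to 47.5 in the odd region and from 3 to 21 over the even regions, and with words of 51 bases both were 1. Alignments to mm9 fell from 441 to 172 for the odd region and from 942 to 333 summed over the even regions at 90% identity, and to 267 and 590 when 200 bp had to align. The sums count a stretch again where the regions at both genes align to it. When each region was extended by 1000 bp on both sides, 2 loci were shared in place of 1, because the even region between the genes then reached the odd region at Gm10800. A probe match as good as the best at the locus was found in 92% of all regions by mismatches, but in 14.7% by the longest exact run. The assembly limits every count of copies, and the unknown depth limits any statement on regions listed by 1 pool.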
